A study of Mus musculus with 6 samples.

Results

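Solute carriers are membrane proteins that move amino acids, sugars, metals, ions, vitamins and metabolites across the membranes of the cell and its organelles. The 155 genes described here are all genes of the deposited table whose name has the form Slc, a family number, a and a member number, except Slc2a1, Slc2a3 and Slc25a31. The table holds 10989 genes in all. The mouse annotation GENCODE M21 lists 339 coding genes under the same rule, and the 155 are among them; the rest were not analysed here. The names place 151 genes in 39 families. The other 4 (Slc4a1ap, Slc9a3r1, Slc9a3r2 and Slc7a6os) are named after a carrier but encode adaptors, scaffolds or a gene opposite a carrier. RNA was sequenced from MPI-II mouse embryonic stem cells, with 2 wild-type libraries (WT replicates 1 and 2, DDX5+/+) and 4 libraries of Ddx5 knockout lines (KO lines 1 to 4, DDX5-/-). Ddx5 encodes an RNA helicase with roles in transcription, splicing and the maturation of microRNAs. Each KO line was grown from a single clone after G418 selection, following a Cas9 nickase directed by paired guide RNAs to the second exon of Ddx5. Cells of both genotypes grew on feeder cells in serum with LIF (leukemia inhibitory factor), PD0325901, which inhibits MEK, and CH99021, which inhibits GSK3. The comparison asks how transcript levels of transporters differ when Ddx5 is lost.

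Cells depend on these proteins in distinct ways. Carriers of families 30 and 39 move zinc out of and into the cytosol, so together they set its zinc level. Amino acid carriers feed protein synthesis, redox balance and nutrient sensing, mitochondrial carriers of family 25 link cytosolic and mitochondrial metabolism, and exchangers of protons and bicarbonate set the pH of the cell.

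Values are normalized scores in deposited units, without a fixed physical unit. Library totals lay between 14612799 and 14722877 units, set by the normalization, and the sequencing depth is unknown. Ddx5 itself stood at 36433 and 36436 units in WT and at 5854, 8450, 12793 and 5659 units in KO lines 1 to 4, lower in each line. WT replicate 2 stood apart, with 131 genes listed at 0, compared with 13 to 19 per remaining library. Across genes, which are not independent replicates, the log levels of the WT libraries correlated at r = 0.934 and those of the KO lines at 0.967 to 0.990. Separate cultures are not stated for the WT replicates, so a p-value here reflects only how far these libraries spread. Log2 fold changes compare the KO with the WT mean of log2(scaled value + 1), which understates changes of low genes, whereas folds are ratios of mean deposited values. A gene passed at an adjusted p below 0.05 (limma, Benjamini-Hochberg over all genes).

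Solute carriers rose and fell in the KO lines in similar numbers. Of the 155 genes, 30 passed the test, 16 higher and 14 lower. This was 19.4% of them, where 17.1% of all genes passed. By direction, 10.3% rose, where 9.75% of all genes did, and 9.03% fell, where 7.34% of all genes did. At least 2-fold differences were found in 6 higher genes (3.87% of the 155, where 3.77% of all genes rose so far) and in 6 lower genes (3.87%, where 2.79% of all genes fell so far). The median log2 fold change was 0.10, beside 0.04 over all genes, and the median size without sign was 0.32, beside 0.29. For 65 carriers, 41.9%, the KO range did not overlap the WT range, as for 43.7% of all genes: KO was above for 37 (23.9%, all genes 24.1%) and below for 28 (18.1%, all genes 19.6%). The counts depended on the libraries used, as did those of all genes. Without KO line 2 or without KO line 3 they were 4 higher and 3 lower, where 4.3% and 5.21% of all genes passed. Without KO line 1 they were 12 and 6, where 11.1% of all genes passed. The median log2 fold change was 0.12 without WT replicate 1 (all genes 0.06) and 0.03 without WT replicate 2 (all genes 0.02). With trimmed-mean scaling 14 were higher and 16 lower. The calls of 6 carriers held whichever library was left out: Slc4a8, Slc25a42, Slc38a4, Slc39a14, Slc7a3 and Slc30a1.

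**Figure D1:**
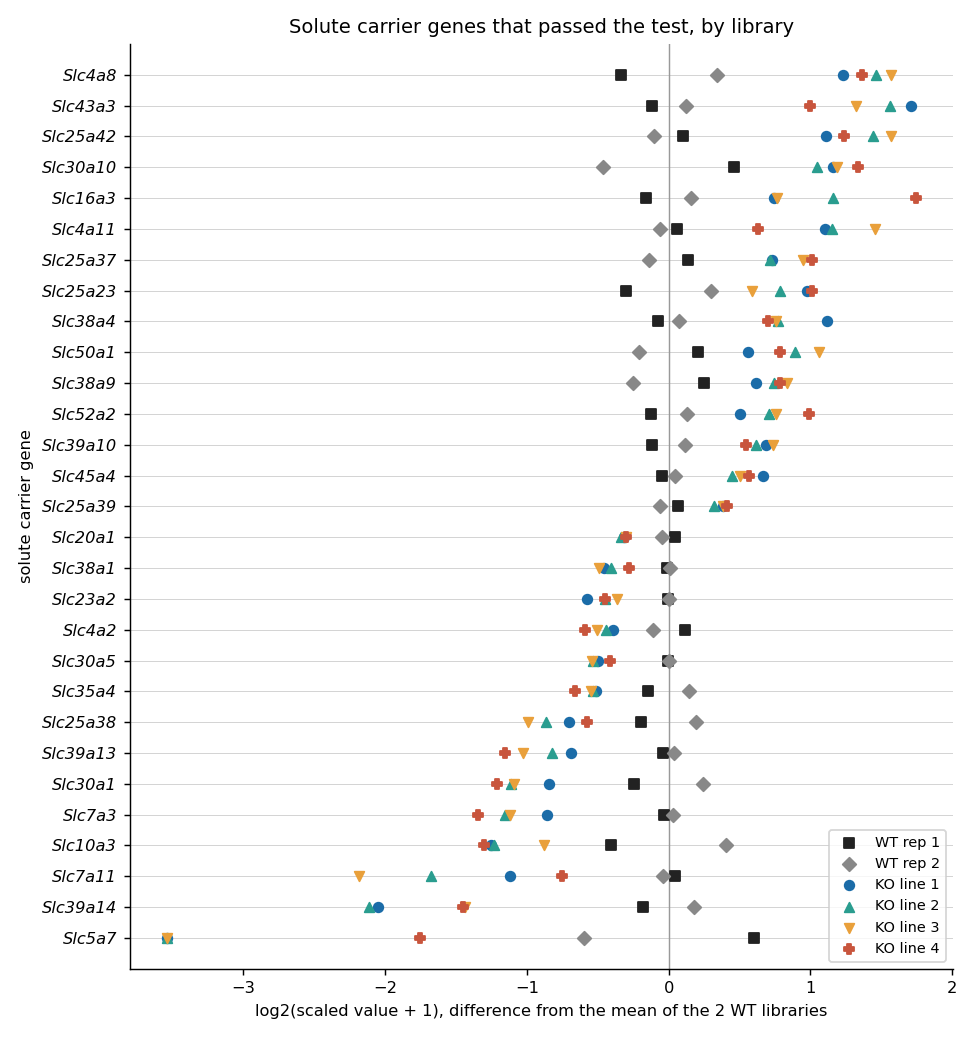
Levels of 29 of the 30 solute carrier genes that passed the test, as log2(scaled value + 1) minus the mean of the 2 WT libraries (x axis), one row per gene and one symbol per library. The 4 KO lines lie to the right of both WT libraries for 15 of these genes and to the left for 14, and Slc5a7 has the lowest KO values.

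Zinc carriers held some of the largest falls. Of the 18 measured, 4 fell, 2 rose and 12 did not pass (all genes: 7.34% fell and 9.75% rose). Their median log2 fold change was -0.07. The largest fall was that of Slc39a14 (ENSMUSG00000022094, mm10 chromosome 14, 70303469 to 70351425, minus strand), a plasma membrane importer of zinc, iron and manganese. It stood at 324 and 421 units in WT and at 78, 74, 127 and 126 units in KO lines 1 to 4. All 4 lines lay below both WT libraries, and lines 1 and 2 were the lowest. The WT mean was 372.5 ± 68.6 units (SD, n = 2) and the KO mean 101 ± 29.2 units (SD, n = 4), 3.68-fold lower (log2 -1.76, SE 0.27, adjusted p = 0.00989).

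Slc30a1 (ENSMUSG00000037434, chromosome 1, 191906767 to 191913247), the exporter that removes zinc from the cytosol across the plasma membrane, stood at 644 and 910 units in WT and at 421, 347, 352 and 322 units in KO. The groups did not overlap, and the WT libraries differed more from each other than the lines did. It was 2.16-fold lower in the KO lines (log2 -1.06, SE 0.174, adjusted p = 0.012). Slc39a13, which moves zinc out of vesicles of the secretory pathway, stood at 317 and 334 units in WT and at 196, 178, 152 and 138 units in KO (log2 -0.92, SE 0.176, adjusted p = 0.0178). Slc30a5, which loads zinc into the secretory pathway, varied little within either group, at 790 and 796 units in WT and 558, 544, 540 and 592 units in KO (log2 -0.50, SE 0.0979, adjusted p = 0.0194). Importers and exporters were thus both among the lower genes.

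The 2 genes of the zinc carrier families that rose encode a zinc importer and a manganese exporter. Slc39a10, a plasma membrane zinc importer, stood at 1148 and 1350 units in WT and at 2018, 1918, 2088 and 1822 units in KO, 1.57-fold higher (log2 0.65, SE 0.107, adjusted p = 0.0123); it was named after its values were seen. Slc30a10, a manganese exporter of the zinc carrier family, had low levels of 51 and 20 units in WT and 92, 84, 94 and 106 units in KO (log2 1.18, SE 0.325, adjusted p = 0.0486). The metallothioneins Mt1 and Mt2, which bind zinc and are induced by it, did not pass. Mt1 stood at 8862 and 4624 units in WT and at 5854 to 7512 units in KO (log2 0.04, adjusted p = 0.922), and Mt2 had a log2 fold change of -0.22 (adjusted p = 0.585). Without KO line 2, 2 zinc carriers were lower and 0 higher, where 4.3% of all genes passed. Without KO line 3, 2 were lower and 1 higher, where 5.21% of all genes passed. The class median was 0.07 without WT replicate 1. The calls of Slc30a10, Slc39a13, Slc30a5 and Slc39a10 were lost in 5, 3, 2 and 1 of the 6 leave-one-out fits (largest adjusted p 0.128, 0.0615, 0.078 and 0.0504). Slc30a10 also did not pass with a pseudocount of 0.1 or quantile normalization (adjusted p = 0.0548 and 0.0984), and exons of Slc39a13 overlap Psmc3 on the opposite strand.

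**Figure D2:**
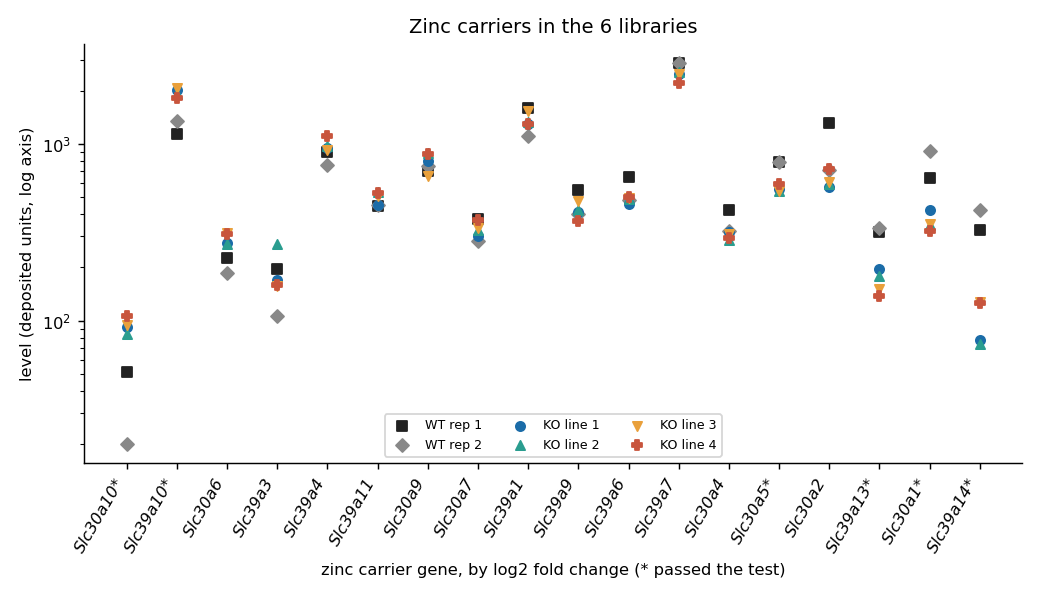
Levels of the 18 zinc carriers of families 30 and 39 in deposited units (y axis, log scale), ordered by log2 fold change (x axis), one symbol per library; an asterisk marks a gene that passed the test. Slc39a14, Slc30a1 and Slc39a13 at the right show all 4 KO lines below both WT libraries, and Slc39a10 at the left shows them above.

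The upstream sequences of Slc30a1 and Slc30a5 are shown because zinc carriers can be controlled through metal response elements, short motifs bound by the zinc-sensing factor MTF1. Each is the 250 bases before the RefSeq start (build GRCm38.p6), 5′ to 3′, with matches to the core forms TGCACNC and TGCGCNC, on either strand, in capitals. RefSeq promoters were matched by symbol for 117 of the 155 genes. The Slc30a1 window is chr1:191906531-191906780 on the plus strand and the Slc30a5 window chr13:100833428-100833677 on the minus strand.
Slc30a1: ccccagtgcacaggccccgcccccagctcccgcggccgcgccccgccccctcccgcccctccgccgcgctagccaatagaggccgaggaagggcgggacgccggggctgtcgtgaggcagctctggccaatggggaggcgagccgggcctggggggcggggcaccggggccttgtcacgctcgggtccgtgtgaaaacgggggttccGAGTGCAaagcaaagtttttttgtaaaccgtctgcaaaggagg
Slc30a5: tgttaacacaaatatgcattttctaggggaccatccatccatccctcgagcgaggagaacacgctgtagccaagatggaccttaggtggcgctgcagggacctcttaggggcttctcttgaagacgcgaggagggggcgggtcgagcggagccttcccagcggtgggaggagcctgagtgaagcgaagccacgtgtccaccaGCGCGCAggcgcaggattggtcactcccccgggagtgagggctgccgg
Slc30a1 held 1 match, on the minus strand, starting 43 bases before the start, and Slc30a5 held 1, also on the minus strand, starting 48 bases before it. At least 1 match to either form was found in 21.4% of the 32851 promoter windows of this length, so such a match is common. The windows of Slc39a10, which rose, and of Slc39a13, which fell, held none, and that of Slc30a10 held 3. Those starting 233 and 232 bases before its start overlap, as the same stretch read on opposite strands. A match is a string of letters and no measure of binding.

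Amino acid carriers moved in both directions. Of 29 measured members of families 1, 3, 6, 7, 36, 38 and 43, 3 rose, 3 fell and 23 did not pass. Their median log2 fold change was 0.11. Over all genes, 9.75% rose and 7.34% fell, together 17.1%. Slc7a3 (ENSMUSG00000031297, chromosome X, 101079210 to 101086020 on the minus strand), a carrier of arginine and lysine abundant in pluripotent cells, stood at 2628 and 2757 units in WT and at 1482, 1204, 1230 and 1050 units in KO. Each line was near the others and far below WT, 2.17-fold on average (log2 -1.12, SE 0.14, adjusted p = 0.0064), the lowest p of the 155 genes. Its relative Slc7a1, the other main carrier of arginine and lysine, stood at 2598 and 1790 units in WT and at 2312, 2452, 2339 and 2581 units in KO. WT and KO overlapped there (log2 0.16, SE 0.15, adjusted p = 0.467).

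Slc7a11 (ENSMUSG00000027737, chromosome 3, 49892526 to 50443614 on the minus strand) encodes the light chain of the cystine-glutamate exchanger, which supplies cysteine for glutathione. It stood at 264 and 248 units in WT and at 110, 70, 45 and 146 units in KO lines 1 to 4. The lines were all below WT but spread more than 3-fold among themselves, lowest in line 3 and highest in line 4 (log2 -1.43, SE 0.393, adjusted p = 0.0485). Slc3a2, the heavy chain that Slc7a11 and Slc7a5 need to reach the membrane, did not pass: WT stood at 3046 and 3722 units and KO at 2496, 3543, 3267 and 3722 units (log2 -0.06, adjusted p = 0.818). Slc7a5, a carrier of large neutral amino acids, did not pass either (log2 0.31, SE 0.201, adjusted p = 0.305).

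The Slc7a11 promoter is shown because it carries a motif of the amino acid response, through which ATF4, a factor induced when amino acids are short, acts on its targets. Capitals mark matches to TGATGNAA on either strand in the 250 bases before the RefSeq start, chr3:50443614-50443863 on the minus strand (GRCm38.p6).
Slc7a11: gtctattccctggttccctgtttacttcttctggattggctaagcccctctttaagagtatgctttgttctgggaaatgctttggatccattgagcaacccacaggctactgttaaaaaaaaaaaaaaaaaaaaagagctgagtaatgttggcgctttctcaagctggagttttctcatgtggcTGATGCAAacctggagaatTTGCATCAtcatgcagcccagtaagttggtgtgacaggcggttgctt
It held 2 matches, on opposite strands, starting 66 and 47 bases before the start. A match was found in 3.45% of the 32851 windows and in 3 of the 117 matched carriers, and 2 or more matches in 0.0396% of the windows. As a group, the ATF4 response list did not move one way: of 17 measured genes 1 rose, 1 fell and 15 did not pass (median 0.03). Of all genes, 17.1% passed. Ddit4, an inhibitor of mTOR signalling that hypoxia also induces, rose from 745 and 1008 units to 2690, 3190, 3046 and 4456 units (log2 1.90, adjusted p = 0.00495). Atf3, a stress-induced transcription factor, fell by 1.31 on the log2 scale (adjusted p = 0.0491), and Atf4 itself did not pass (log2 -0.23, adjusted p = 0.304).

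Family 38, whose members carry small neutral amino acids such as glutamine, had 2 higher and 1 lower gene of 7. Over all genes, 9.75% were higher and 7.34% lower. Slc38a4 (ENSMUSG00000022464, chromosome 15, 96994820 to 97055956 on the minus strand), an imprinted gene, went from 2592 and 2874 units to 5932, 4681, 4616 and 4456 units. The groups lay far apart, with line 1 the highest, a 1.80-fold rise (log2 0.84, SE 0.132, adjusted p = 0.0111). Slc38a9, a lysosomal carrier that senses arginine for mTORC1, stood at 118 and 79 units in WT and at 156, 172, 184 and 178 units in KO (log2 0.75, SE 0.201, adjusted p = 0.0467). Slc38a1, a glutamine importer that lies on chromosome 15 as Slc38a4 does, was lower by a smaller step, from 1329 and 1352 units to 972, 1009, 951 and 1101 units (log2 -0.41, SE 0.0989, adjusted p = 0.0348). Slc38a2, a related importer, did not pass (log2 -0.22, SE 0.124, adjusted p = 0.254).

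Slc43a3 rose most in the amino acid class, although it is known as a carrier of purine bases rather than amino acids. Its level was 52 and 64 units in WT and 222, 199, 166 and 130 units in KO, 3.09-fold higher (log2 1.40, SE 0.249, adjusted p = 0.0149). The glycine carrier Slc6a9 had a log2 fold change of 1.44, the largest positive one of the 155, and did not pass (adjusted p = 0.0572), at 40 and 8 units in WT and 74, 101, 88 and 64 units in KO. With 1 library left out, the log2 fold change of Slc6a9 ran from 0.80 to 2.07. Exons of Slc6a9 overlap B4galt2 and Ccdc24 on the opposite strand. Slc1a1, a glutamate and cysteine carrier, and Slc1a5, a glutamine carrier, did not pass (log2 1.08 and -0.11, adjusted p = 0.101 and 0.704). The calls of Slc7a11, Slc38a9, Slc38a1 and Slc43a3 were lost in 5, 5, 4 and 2 of the 6 leave-one-out fits (largest adjusted p 0.128, 0.131, 0.108 and 0.0616). Slc7a11 also did not pass with a pseudocount of 0.1, a minimum scaled value of 10, quantile normalization or no variance trend in limma (adjusted p = 0.0514 to 0.0595), nor Slc38a9 with that minimum, trimmed-mean scaling or quantile normalization (0.0513 to 0.0544). Without KO line 2 or without KO line 3, 1 amino acid carrier was higher and 1 lower, where 4.3% and 5.21% of all genes passed. The class median was 0.12 without WT replicate 1.

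Mitochondrial carriers of family 25 were the largest family, with 31 members, of which 4 rose, 1 fell and 26 did not pass (median log2 0.17). That was 5 of 31, where 17.1% of all genes passed. Slc25a42 (ENSMUSG00000002346, chromosome 8, 70184340 to 70212305 on the minus strand), which imports coenzyme A into mitochondria, stood at 101 and 86 units in WT and at 218, 278, 306 and 240 units in KO. Every line was more than 2 times either WT library (2.79-fold by means, log2 1.34, SE 0.185, adjusted p = 0.00767). Slc25a37, or mitoferrin, which brings iron to mitochondria for heme synthesis, went from 251 and 205 units to 385, 382, 452 and 472 units (log2 0.85, SE 0.151, adjusted p = 0.0148). Slc25a38, which supplies glycine for heme synthesis, went the other way, from 446 and 586 units to 308, 274, 250 and 338 units (log2 -0.78, SE 0.172, adjusted p = 0.0256). Carriers of the iron and of the glycine for heme therefore lay on opposite sides of WT.

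Slc25a39, which brings glutathione into mitochondria and was named after its values were seen, rose by a small step, from 3870 and 3542 units to 4842, 4616, 4842 and 4925 units (log2 0.37, SE 0.0796, adjusted p = 0.0236). Slc25a23, a calcium-regulated ATP-magnesium and phosphate carrier, went from 112 and 178 units to 293, 255, 220 and 301 units (log2 0.84, SE 0.219, adjusted p = 0.0425). The ADP-ATP exchangers did not pass. Slc25a5 stood at 8085 and 8853 units in WT and at 8442 to 9668 units in KO (log2 0.09, adjusted p = 0.488), and Slc25a4 had a log2 fold change of 0.63 (adjusted p = 0.11). The calls of Slc25a23, Slc25a39, Slc25a38 and Slc25a37 were lost in 5, 4, 4 and 1 of the 6 leave-one-out fits (largest adjusted p 0.108, 0.0806, 0.0893 and 0.0557). Slc25a23 also did not pass with trimmed-mean scaling or quantile normalization (adjusted p = 0.0516 and 0.0517), nor Slc25a39 without the variance trend (0.0509). The family had 1 higher and no lower member without KO line 3, where 5.21% of all genes passed. Its median was 0.27 without WT replicate 1 and -0.0032 without WT replicate 2.

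Transporters of bicarbonate and protons, which set cellular pH, held some of the largest rises. Slc4a8 (ENSMUSG00000023032, chromosome 15, 100761747 to 100823968), a sodium-driven exchanger of chloride and bicarbonate, stood at 162 and 268 units in WT and at 509, 600, 647 and 561 units in KO. The lines lay close together, 2.69-fold above WT (log2 1.40, SE 0.203, adjusted p = 0.00853). Slc4a11, a family member known from corneal dystrophy, stood at 202 and 184 units in WT and at 431, 446, 554 and 306 units in KO (log2 1.08, SE 0.223, adjusted p = 0.0216). Slc4a2, a chloride-bicarbonate exchanger, was lower, at 529 and 450 units in WT and 368, 356, 340 and 320 units in KO (log2 -0.48, SE 0.125, adjusted p = 0.0419). The other 5 of the 8 measured members of families 4 and 26 did not pass (class median 0.19). Among all genes, 17.1% passed.

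Slc16a3, which exports lactate with a proton from glycolytic cells, stood at 1026 and 1278 units in WT and at 1931, 2577, 1954 and 3870 units in KO. The lines were all higher but uneven, with line 4 the highest (2.24-fold by means, log2 1.10, SE 0.285, adjusted p = 0.0414). Slc16a1, the other lactate carrier tested, had overlapping groups, at 1278 and 2112 units in WT and 1016, 1438, 1466 and 1786 units in KO (log2 -0.23, SE 0.264, adjusted p = 0.565). Bsg, the chaperone of both lactate carriers, did not pass (log2 0.28, adjusted p = 0.149). The calls of Slc4a2, Slc4a11 and Slc16a3 were lost in 5, 4 and 4 of the 6 leave-one-out fits (largest adjusted p 0.116, 0.0788 and 0.119). Slc16a3 also did not pass without the variance trend (adjusted p = 0.0586), and exons of Slc4a2 overlap Fastk on the opposite strand.

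Carriers of sugars, inositol and related solutes had the highest class median, 0.48 over 11 genes. Of these, 2 were higher, 1 was lower and 8 did not pass, where 9.75% of all genes were higher and 7.34% lower. Slc50a1, a sugar carrier of the SWEET family, stood at 191 and 140 units in WT and at 248, 317, 358 and 293 units in KO (log2 0.83, SE 0.194, adjusted p = 0.0322). Slc45a4, named after its values were seen, stood at 899 and 960 units in WT and at 1483, 1272, 1326 and 1382 units in KO (log2 0.55, SE 0.101, adjusted p = 0.0162). Slc5a7 (ENSMUSG00000023945, chromosome 17, 54273590 to 54299034 on the minus strand) belongs to the sodium-glucose family by name but encodes the choline carrier of cholinergic neurons. It stood at 244 and 98 units in WT, was listed at 0 in KO lines 1, 2 and 3, and stood at 36 units in line 4. This was the largest fall of the 155 genes (log2 -3.09, SE 0.701, adjusted p = 0.0288), and both its size and its call depended on the pseudocount (with 0.1, log2 -5.56 and adjusted p = 0.109). The calls of Slc5a7, Slc50a1 and Slc45a4 were lost in 5, 4 and 2 of the 6 leave-one-out fits (largest adjusted p 0.0921, 0.104 and 0.0563).

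The vitamin and choline class had 1 higher, 1 lower and 6 genes of 8 that did not pass, where 17.1% of all genes passed. Slc52a2, a riboflavin carrier, rose from 173 and 209 units to 276, 320, 332 and 392 units (log2 0.74, SE 0.171, adjusted p = 0.0307). Slc23a2, which takes up ascorbate, fell from 1298 and 1306 units to 868, 951, 1009 and 951 units (log2 -0.46, SE 0.0983, adjusted p = 0.0243). Slc20a1, a phosphate importer named after its values were seen, varied little among the lines, at 3191 and 2996 units in WT and 2480, 2448, 2511 and 2511 units in KO (log2 -0.31, SE 0.0781, adjusted p = 0.0377). Slc35a4, of the nucleotide sugar family, fell from 1152 and 1406 units to 890, 877, 866 and 800 units (log2 -0.56, SE 0.114, adjusted p = 0.0211). Slc10a3, of the bile acid carrier family, went from 100 and 187 units to 49, 50, 68 and 47 units (log2 -1.17, SE 0.313, adjusted p = 0.0457). These 5 calls were lost in 4 (Slc52a2), 4 (Slc23a2), 5 (Slc20a1), 3 (Slc35a4) and 5 (Slc10a3) of the 6 leave-one-out fits, with a largest adjusted p of 0.151. Slc20a1 also did not pass without the variance trend (adjusted p = 0.0697). Exons of Slc35a4 overlap Apbb3 on the opposite strand, and those of Slc10a3 overlap Ubl4a on the same strand, so reads may be shared.

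Several classes had no member past the test. These were the 6 cation-chloride cotransporters (3 at an unadjusted p below 0.05 in limma, 2 higher and 1 lower) and the 6 carriers of iron, copper, magnesium and heme (1 higher). The 6 organic ion and peptide carriers (1 lower at an unadjusted p below 0.05) and the 2 vesicular and lysosomal carriers (0) were the others, beside the 4 genes only named after a carrier (0). Among the lipid and acetyl-CoA carriers 1 of 7 passed, among nucleoside and nucleotide sugar carriers 1 of 10, and among phosphate carriers 1 of 2. The share to set beside all these class counts is 17.1%, that of all genes. Slc27a3, of the fatty acid carrier family, and Slc29a3, a lysosomal nucleoside carrier, each had an adjusted p of 0.101 (log2 0.68 and 0.54). The table itself holds only genes that reach 80 units in at least 2 libraries. For 7 of the 155 genes, and for 563 of all 10989, 1 group lay wholly under 80 units, so these entered through their higher group. The 7 carriers were Slc26a11, Slc5a7, Slc37a2, Slc6a9, Slc30a10, Slc10a3 and Slc43a3. Of these, 4 passed the test and are among the at least 2-fold changes counted above: Slc43a3 and Slc30a10 higher, Slc5a7 and Slc10a3 lower.

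**Figure D3:**
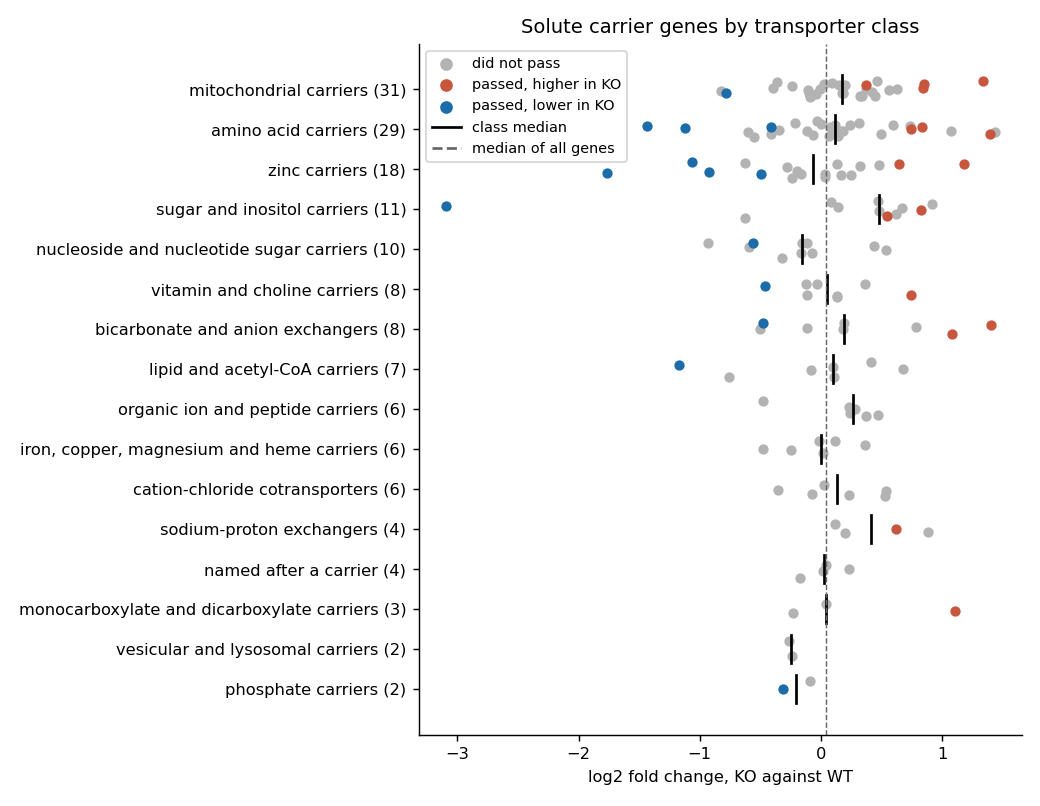
Log2 fold change, KO against WT (x axis), of each solute carrier gene, grouped by transporter class with the number of genes (y axis); red and blue points passed the test, grey points did not. Short black lines are class medians, from -0.25 for 2 vesicular and lysosomal carriers to 0.48 for 11 sugar and inositol carriers, and the dashed line is the median of all genes, 0.04.

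Feeder cells and other cell types could add transcripts to these libraries, and in bulk RNA fewer cells of a type and less RNA per cell cannot be told apart. Of 24 fibroblast markers 21 were measured, and 18 were lower in the KO lines, none higher (median log2 -2.80). Their summed level was 77291 and 51314 units in WT and 39405 to 41645 units in KO. Most of the KO sum was Fn1, the fibronectin gene, which stood at 36452 units in each KO line and did not pass; without it the sums were 40839 and 21459 units in WT and 2953 to 5193 units in KO. Col6a3 was at 0 in KO line 4. All KO values of Col6a1, Col6a2, Col6a3, Loxl1, Prrx1 and S100a4 lay under 80 units. These genes entered the table through WT and could only be lower. The part of the fibroblast markers in the carrier results was not tested. Between the WT libraries, 17 of the 18 lower markers stood higher in WT replicate 1 than in replicate 2. Their median log2 difference, replicate 2 minus 1, was -0.85. Among the 14 lower carriers, 10 stood higher in replicate 2 (median 0.05), beside 45.2% of all genes. What these directions between 2 libraries mean for the carriers was not tested. The 4 lower carriers that stood higher in WT replicate 1 were Slc5a7, Slc7a11, Slc4a2 and Slc20a1. All 13 stem cell markers on the list were measured (Nanog higher, Klf4 and Lin28a lower, 10 not past the test), and of 10 primitive endoderm markers only Lama1 and Dab2 were measured, neither past the test.

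Carriers on chromosome 8 followed a library pattern of their own. In all 13 of them KO line 1 was the lowest of the 4 lines, as it was for 89.1% of the 603 genes of the chromosome and 26.3% of all genes. In 10 of the 13, WT replicate 2 stood above WT replicate 1, as in 80.4% of the genes of chromosome 8 and 45.2% of all genes. Their median log2 level in KO line 1 was 0.56 below the mean of the other lines, while for all genes of the chromosome the difference was -0.50. Slc7a6, which carries basic and neutral amino acids, shows it: 338 and 676 units in WT replicates 1 and 2, and 372, 860, 932 and 948 units in KO lines 1 to 4. Neither Slc7a6 nor its opposite-strand neighbour Slc7a6os, at 632, 951, 658, 1124, 1036 and 899 units in the same order, passed the test (adjusted p = 0.362 and 0.54). Slc25a4 ran alike, at 3096 and 4830 units in WT and 4330, 6688, 6441 and 6948 units in KO, and so did Slc7a5, at 3408 and 4456 units in WT and 3608, 5226, 5057 and 5770 units in KO. When the chromosome medians were removed from each library, an alternative chosen after seeing the data, Slc25a4 passed (log2 0.43, adjusted p = 0.0243), the log2 fold change of Slc7a5 went from 0.31 to 0.11, and Slc25a42 still passed (log2 1.14, adjusted p = 0.0133). The cause of the chromosome pattern was not tested.

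**Figure D4:**
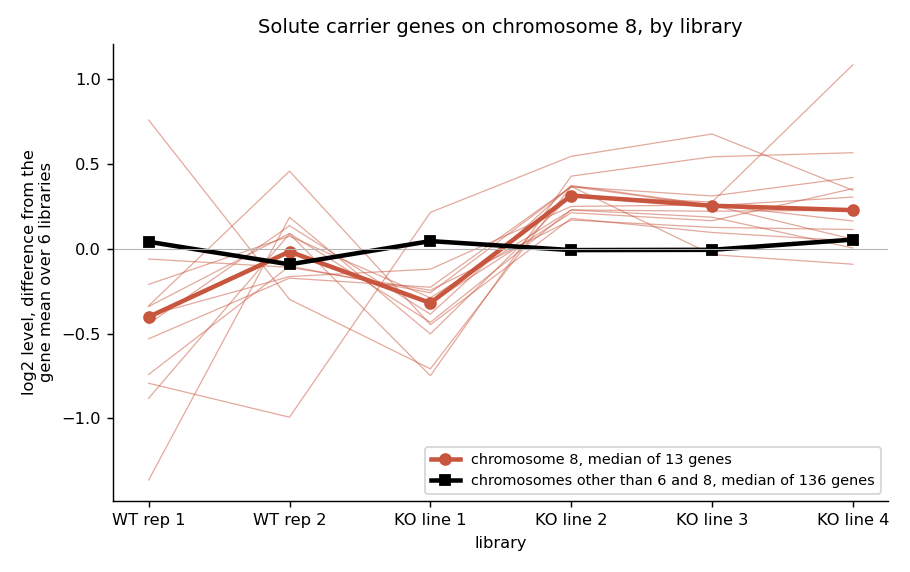
Log2 level of solute carrier genes minus each gene's mean over the 6 libraries (y axis) in each library (x axis); thin red lines are the 13 genes on chromosome 8, the thick red line their median and the black line the median of 136 genes on chromosomes other than 6 and 8. The red median is low in WT replicate 1 and KO line 1 and high in KO lines 2 to 4, and the black one stays near 0.

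On chromosome 6, KO line 4 stood above the mean of the other lines by a median log2 of 0.45 over 518 genes and 0.21 over 6 carriers. Line 4 was the highest of the lines for 4 of the 6 carriers, 82.4% of the 518 genes and 30.9% of all genes. None of the 6 passed the test, where 17.1% of all genes did. Among carriers with a mean scaled value of at least 10, the lines differed most in Slc7a6 (SD 0.63 on the log2 scale), Slc7a11, Slc1a1, Slc28a1 and Slc16a3, where the median SD of the 155 genes was 0.16 and that of all genes 0.15. Slc1a1 stood at 177 and 84 units in WT and at 342, 392, 266 and 160 units in KO, so line 4 alone fell within the WT range. Slc28a1, a nucleoside importer, stood at 196 and 448 units in WT and at 226, 185, 98 and 117 units in KO (log2 -0.93, adjusted p = 0.152). Among the lines, line 4 was the highest for Slc7a6, Slc7a11 and Slc16a3 and the lowest for Slc1a1.

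Transporters outside the rule are given from lists chosen with earlier results of these data known. For each list, the shares to compare are those of all genes, 9.75% higher and 7.34% lower. Of the 14 other nucleotide sugar carriers, named Slc35b to Slc35g, 3 fell, none rose and 11 did not pass (median -0.15). Slc35e4 went from 136 and 218 units to 31, 35, 40 and 28 units (log2 -1.96, SE 0.303, adjusted p = 0.0101), Slc35f5 fell by 0.88 and Slc35b1 by 0.43 on the log2 scale. Of 16 genes listed as ion-pumping ATPases, 5 were higher, none was lower and 11 did not pass (median 0.04). The list includes the beta subunit genes Atp1b1, Atp1b2 and Atp1b3, and also Atp13a1, Atp13a2 and Atp13a3, so not all 16 encode ion pumps. Atp2b2, a plasma membrane calcium pump, went from 3 and 14 units to 145, 94, 136 and 180 units (adjusted p = 0.00661). Atp13a2, a lysosomal polyamine exporter, stood at 426 and 412 units in WT and at 808, 827, 888 and 1061 units in KO (log2 1.06, adjusted p = 0.00654).

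Genes with an ABC name, most of which encode pumps of solutes driven by ATP, were mostly not past the test. Abcc10 rose (log2 0.89, adjusted p = 0.0475), and 23 of 24 did not pass (median 0.24). The 24 include Abce1, Abcf1, Abcf2 and Abcf3, which do not encode membrane transporters. Of 23 carriers without an Slc name 3 rose and 3 fell. Mfsd2b, an exporter of sphingosine phosphate, went from 158 and 236 units to 26, 44, 22 and 21 units (log2 -2.31, adjusted p = 0.00912), Nipa2, a magnesium carrier, fell by 0.73, and Mfsd12, a lysosomal cysteine importer, rose by 1.10 on the log2 scale. Slco1b2 was the 1 of 4 organic anion polypeptides that passed (log2 2.23, adjusted p = 0.0324), at 31 and 0 units in WT and 62, 120, 145 and 117 units in KO. Among 19 partners and regulators of carriers, Arrdc4, which draws glucose carriers from the surface, and the kinase Wnk1, which controls cation-chloride cotransporters, rose (log2 0.78 and 0.72, adjusted p = 0.0204 and 0.0461), and 17 did not pass. For Slc35e4, Atp2b2, Mfsd2b and Slco1b2, 1 group lay wholly under 80 units, so these genes entered the table through their higher group. With a library left out, the calls of Slc35e4, Atp2b2, Atp13a2, Mfsd2b, Nipa2 and Ddit4 held in 6 of 6 fits. The other 3 ATPase calls held in 1 to 5 of the 6, and among carriers without an Slc name those of Nipal3, Mfsd5 and Xpr1 held in 2, 1 and 1. Those of Atf3, Wnk1, Abcc10 and Slc35b1 held in 0, 1, 1 and 1, of Slco1b2 and Mfsd12 in 2 and 3, and of Arrdc4 and Slc35f5 in 4 each (adjusted p up to 0.169).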

How the data were processed

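RNA was sequenced from 2 WT and 4 KO libraries; RSEM 1.2.17, Bowtie2 2.2.0 and build mm10 are named per the submitters' processing notes. For their roles, annotation and normalization: not given in the sources used here. Values as deposited, named CPM by the authors, are whole numbers with nearly equal totals and a top value of 78894 shared by 10 genes, so they were treated as a normalized score. They were divided by 14.7 units (the mean library total per 1000000), 1 was added and log2 taken; genes needed a scaled value of 1 in 2 libraries, and none was removed. The KO lines were compared with WT by limma 3.58.1 (R 4.3.3, lmFit, eBayes with trend, two-sided, 4 residual degrees of freedom, no covariate), tested on simulated data. An exact permutation of 2 against 4 libraries cannot go below p = 0.0667. Classes follow the Slc family number. Named genes were the 12 largest rises and 12 largest falls that passed, the lowest p in each family of at least 4, 12 set carriers, the 5 with the widest spread among KO lines, and at most 3 per other list by p; 4 passing carriers outside this rule (Slc39a10, Slc25a39, Slc20a1 and Slc45a4) were added. Members and lists were chosen with earlier results of these data known. Positions are from GENCODE M21. Alternatives were another pseudocount (5 or 0.1), filter (none or 10), scaling (trimmed mean of log ratios, or quantile), no trend, a replicate block, each library left out, and chromosome medians removed. No class was tested as a set. Some genes counted in the totals are not reported here by name.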

Additional observations from a re-analysis of the deposited data

Results flagged for a closer look

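In 43 carriers named or past the test, the 4 KO lines were checked for a line far from the others on the log2 scale, by the gap to its neighbour over the whole range, against the 95% critical value of Dixon for 4 samples. This held for 5 genes. Chance gives about 1 in 20 only for independent genes not picked by these values. The 43 include carriers picked for a wide spread among the same lines, Slc7a6 among them, so that rate does not apply here. KO line 4 stood high for Slc5a7 (ratio 1.00, fixed by the tie of the other lines at 0). It also stood high for Slc1a5 (0.835, with 848, 910, 870 and 1300 units in KO lines 1 to 4). KO line 3 stood high for Slc10a3 (0.838). KO line 1 stood low for Slc7a6 (0.895) and Slc25a4 (0.840), both on chromosome 8. No cause was tested.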

How the results depend on the processing

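Leaving out 1 library in turn gave 4 to 33 carriers called higher, 3 to 15 lower, 2 to 9 at least 2-fold higher and 3 to 5 at least 2-fold lower, beside 16, 14, 6 and 6 with all libraries. Of the 30 calls, 24 were lost without at least 1 library, 23 each without KO line 2 or KO line 3 and 7 without WT replicate 1. With a pseudocount of 5, 2 carriers were at least 2-fold higher, and with a scaled value of at least 10 required, 3 were at least 2-fold lower; the other counts with other pseudocounts, filters, scalings or without trend stayed within 1.5 times. The counts hide lost calls: 3 with a pseudocount of 0.1, 2 with the filter of 10 (which left 3 more untested), 2 with trimmed-mean scaling, 4 with quantile normalization and 4 without trend, 8 genes in all. With the replicate block 0 were higher, 0 lower, and 0 at least 2-fold changed in limma (39 at an unadjusted p below 0.05). The numbers are a replicate number in WT and a line number in KO. KO lines 3 and 4 had no WT library of the same number, so with the block they added nothing to the comparison of KO with WT. Deviations from the group means correlated at r = 0.145 for number 1 and 0.097 for number 2 across genes. For WT replicate 2 with KO line 3 the value was 0.096. With 2 WT libraries their deviations mirror each other, so these values cannot show whether samples of the same number share more than it. Direction turned with a library left out for Slc3a2 (log2 -0.21 to 0.080), Slc7a1 (-0.10 to 0.43), Slc1a5 (-0.26 to 0.035) and Slc16a1 (-0.59 to 0.13), none of which had passed; the cause was not tested. Removing chromosome medians gave 20 higher and 17 lower, where 20.9% of all genes passed. Depth is unknown, so no counting error can be given.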
